A study of Mus musculus with 14 samples.

Results

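Chromatin accessibility was followed at 6 mouse gene loci, those of Rgs3, Filip1, Ldlrad4, Arhgap26, Atp9b and Mapk4, in long-term haematopoietic stem cells (LT-HSC) and in MPP3 cells of the bone marrow. The genes lie outside a list of myeloid genes and were chosen by measured values of these same libraries. Rgs3, Filip1, Ldlrad4 and Arhgap26 were selected on the difference MPP3 minus LT-HSC averaged over the genotypes, and Atp9b and Mapk4 on that difference in wild-type cells. Those differences are therefore given as descriptions, with no test. A region belonged to a locus where it overlapped the RefSeq bounds of the gene widened by 10 kb on each side and had a mean deposited signal of at least 50 over all libraries. This gave 95 regions of the 59189 that passed the same minimum, among 705361 deposited. Arhgap26 had 32 such regions of 392 deposited in its locus, Rgs3 23 of 124, Ldlrad4 14 of 143, Mapk4 14 of 95, Filip1 7 of 102 and Atp9b 5 of 75. Just inside the minimum lay 8 regions with mean signals of 50.5 to 53.6, and just outside it 14 with 45.6 to 49.7.

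ATAC-seq, in which a transposase places sequencing adapters into open DNA, was used on 14 libraries from sorted C57BL/6J marrow, 7 of LT-HSC and 7 of MPP3. Donor mice labelled WT (Mx-Cre) are called WT here. Dnmt3a stands for the genotype Dnmt3a-flR878H/+ and Npm1 for Npm1-frt/+, and Dnmt3a;Npm1 mice carried both alleles. Lethally irradiated CD45.1 recipients were given 1000000 whole marrow cells, and all of them, WT included, received poly(I:C) 4 weeks later and tamoxifen 4 weeks after that, with harvest after another 4 weeks. Mx-Cre is driven by an interferon-inducible promoter that poly(I:C) switches on in many blood cells and not in stem cells alone, and the labels name a recombinase for WT only. How donor cells were told from remaining host cells is not given there. There were 8 groups, and 6 of them had an A and a B library. The LT-HSC Dnmt3a group and the MPP3 Dnmt3a;Npm1 group had only B. Whether A and B were separate animals is not in the labels, so a p-value here weighs a difference against library spread that may be technical.

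LT-HSC sustain blood formation over a lifetime, and MPP3 cells are a multipotent progenitor population that leans towards granulocytes and monocytes. Open chromatin away from gene starts often marks regulatory elements, and a gene can gain signal at a single element or along its whole length. The 6 genes act in different processes. Rgs3 encodes a protein that switches off signalling by heterotrimeric G proteins, and Filip1 encodes a binding partner of filamin, which links actin filaments. Ldlrad4 encodes a membrane protein that dampens TGF-beta signalling to SMAD proteins, and Arhgap26 encodes a GTPase-activating protein. Atp9b encodes a P4-type ATPase of the Golgi, in the family of the lipid flippases, and Mapk4 encodes ERK4, an atypical MAP kinase.

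Total deposited signal was 14683769 to 28748205 per library, and tested regions held 25.5% to 63.1% of it, with the lowest shares in LT-HSC Npm1 B (25.5%) and A (29.4%). Values below are deposited signals divided by a library factor (normalized signal), and differences are on the log2(value + 4) scale, which understates changes of low regions. Each locus was compared in bulk cells, so fewer cells with an open region and less opening per cell cannot be told apart. MPP3 Dnmt3a B stood apart in how its signal was spread over chromosomes. Chromosome 18, which carries Ldlrad4, Arhgap26, Atp9b and Mapk4, held 3.88% of its autosomal signal in tested regions outside the 6 loci, against 2.42% to 2.77% in the other 13 libraries. In regions under the signal minimum its chromosome 18 share was 1.72 times the median library. LT-HSC Dnmt3a;Npm1 B lay at the other end, at 0.67 times the median in those low regions and 0.90 times in tested regions.

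**Figure D1:**
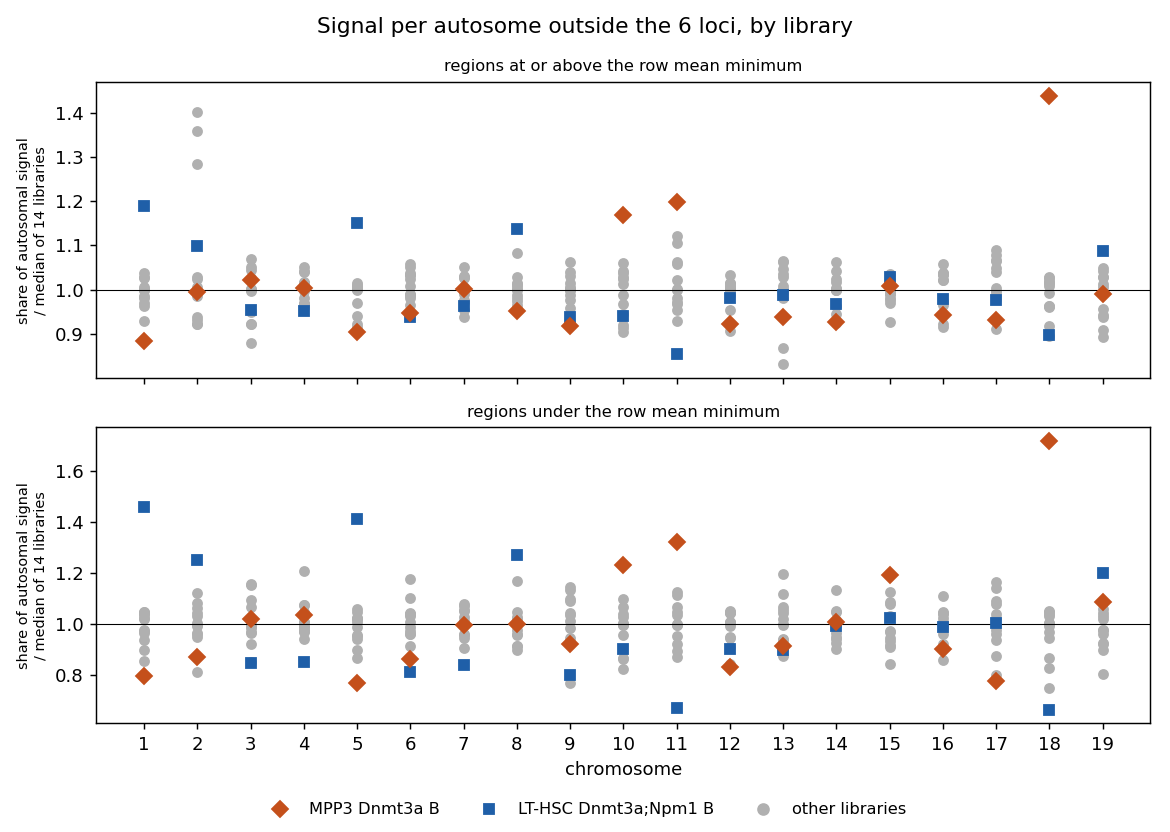
Share of autosomal signal on each chromosome, divided by the median of the 14 libraries, for tested regions and for regions under the signal minimum, both outside the 6 loci; each point is a library and the line at 1 is the median. MPP3 Dnmt3a B is the highest point on chromosome 18 in both panels, at 1.44 and 1.72.

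The sorted populations carried the marks of their labels, within limits. Over all tested regions 52.5% were higher in MPP3, and 0.139% passed the test, 0.112% as higher. Regions of granulocyte and monocyte genes were higher in MPP3 at 46 of 59, with a median log2 difference of 0.42. Of these 3 passed as higher, all of Mpo, which encodes the granule enzyme myeloperoxidase. Stem cell genes were higher at 30 of 97 regions (median -0.17), erythroid and megakaryocyte genes at 9 of 51 (median -0.35), B and T cell genes at 6 of 30 (median -0.30) and macrophage and dendritic genes at 6 of 10 (median 0.08). In the erythroid and megakaryocyte list 1 region passed as lower, in Zfpm1 (-1.65, SE 0.26, adjusted p = 0.0146 by limma). The stem cell, B and T cell, and macrophage and dendritic lists had 0 called. Summed signal of the granulocyte and monocyte list ran from 6373 to 8345 in LT-HSC and from 8101 to 11260 in MPP3. The summed stem cell list overlapped more, at 10340 to 14480 in LT-HSC and 10060 to 11920 in MPP3. All marker lists had signal in both populations, and what they contribute to the 6 loci was not tested.

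A single strong region led each locus, called the lead region here: the region higher in MPP3 with the smallest p in the contrast that chose the gene. Positions are in build mm10 as deposited, and whether the deposited starts count from 0 or 1 is not stated. The Rgs3 lead lay on chromosome 4 at 62660442 to 62662836, within the gene and within the overlapping noncoding RNA gene Gm52741. Filip1 was led by a region on chromosome 9 at 79815559 to 79816913. The 4 leads on chromosome 18 lay at 68159242 to 68161232 (Ldlrad4), 38938544 to 38939743 (Arhgap26, also inside Gm5820), 80737440 to 80739654 (Atp9b) and 73947746 to 73949576 (Mapk4). All 6 were inside their gene and none crossed a gene bound. The nearest bound of the member gene was 3299 bp away in Atp9b, 10541 bp in Filip1, 19260 bp in Mapk4, 40183 bp in Rgs3, 99318 bp in Ldlrad4 and 336927 bp in Arhgap26. The gene table gives bounds only, so introns, exons and UTRs were not assigned. The leads were 1200 to 2395 bp wide, against a median of 1008 bp for all tested regions, and their signal per kb was 102 to 148. By mean level the lead ranked first in Rgs3, Filip1, Atp9b and Mapk4, 2 of 14 in Ldlrad4 and 7 of 32 in Arhgap26.

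The Rgs3 lead separated the cell types. In LT-HSC the WT pair, A before B as in all pairs below, had normalized signals of 181 and 201, Dnmt3a B 281, the Npm1 pair 182 and 158 and the Dnmt3a;Npm1 pair 152 and 253. In MPP3 the WT pair had 423 and 497, the Dnmt3a pair 305 and 397, the Npm1 pair 521 and 527 and Dnmt3a;Npm1 B 444. All MPP3 libraries lay above all LT-HSC libraries, with the narrowest gap between LT-HSC Dnmt3a B and MPP3 Dnmt3a A. The log2 difference was 1.08 (SE 0.20) over the 4 genotypes and 1.25 (SE 0.35) in WT. Ordered by mean, LT-HSC ran from Npm1 (170.0) through WT (191 ± 14.0, SD, n = 2) and Dnmt3a;Npm1 to Dnmt3a, and MPP3 from Dnmt3a (351 ± 64.5, n = 2) through Dnmt3a;Npm1 and WT (460.1 ± 52.4, n = 2) to Npm1 (524 ± 4.58, n = 2). In this order Npm1, WT and Dnmt3a;Npm1 overlapped within LT-HSC, as did Dnmt3a;Npm1 and WT within MPP3. The MPP3 Npm1 pair lay above the MPP3 WT pair, by a log2 difference of 0.19 (SE 0.35) that was not called.

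The Filip1 lead also separated the cell types. Among LT-HSC the WT pair had 55.0 and 46.1, Dnmt3a B 62.5, the Npm1 pair 72.8 and 79.0 and the Dnmt3a;Npm1 pair 97.5 and 69.0. Among MPP3 the WT pair had 209 and 245, the Dnmt3a pair 133 and 183, the Npm1 pair 307 and 229 and Dnmt3a;Npm1 B 145. The cell types did not overlap. Within LT-HSC the WT pair was lowest, and within MPP3 the Dnmt3a A and Dnmt3a;Npm1 B libraries were lowest. The log2 difference was 1.47 (SE 0.24) over the genotypes, 2.08 in WT, 1.75 in Npm1, 1.27 in Dnmt3a and 0.80 in Dnmt3a;Npm1.

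At the Ldlrad4 lead 1 LT-HSC library reached into the MPP3 range. The LT-HSC WT pair had 147 and 168, Dnmt3a B 171, the Npm1 pair 185 and 136 and the Dnmt3a;Npm1 pair 151 and 329. The MPP3 WT pair had 326 and 511, the Dnmt3a pair 342 and 418, the Npm1 pair 411 and 456 and Dnmt3a;Npm1 B 369. LT-HSC Dnmt3a;Npm1 B, the library with the lowest chromosome 18 share in low regions, lay just above MPP3 WT A, and the other 6 LT-HSC libraries lay below all of MPP3. The log2 difference was 1.16 (SE 0.22) over the genotypes and 1.36 (SE 0.39) in WT.

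Arhgap26 had the largest lead difference of the 6, 2.06 (SE 0.28) over the genotypes. For LT-HSC the WT pair had 80.0 and 50.1, Dnmt3a B 72.7, the Npm1 pair 91.0 and 65.2 and the Dnmt3a;Npm1 pair 20.3 and 8.73. For MPP3 the WT pair had 193 and 272, the Dnmt3a pair 126 and 219, the Npm1 pair 357 and 304 and Dnmt3a;Npm1 B 166. No library of LT-HSC reached the lowest of MPP3, and both LT-HSC Dnmt3a;Npm1 libraries lay far below the other 5 of their cell type. By genotype the difference was 1.79 in WT, 1.15 in Dnmt3a, 2.04 in Npm1 and 3.27 in Dnmt3a;Npm1, the last against a single MPP3 library.

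Atp9b and Mapk4 are the loci chosen on WT. At the Atp9b lead the LT-HSC WT pair had 88.6 and 83.2, Dnmt3a B 116, the Npm1 pair 217 and 263 and the Dnmt3a;Npm1 pair 212 and 231. Its MPP3 WT pair had 310.1 and 362, the Dnmt3a pair 234 and 437, the Npm1 pair 326 and 397 and Dnmt3a;Npm1 B 297. The 4 LT-HSC libraries with an Npm1 allele lay above the 3 without it, and the highest of them overlapped MPP3 Dnmt3a A. The choice on WT favours a low LT-HSC WT pair, so this order is a description. Its share over all tested regions was not counted. The log2 difference was 1.92 (SE 0.37) in WT, 1.44 in Dnmt3a, 0.58 in Npm1 and 0.42 in Dnmt3a;Npm1.

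Mapk4 showed the largest WT difference of the 6 leads, 2.43 (SE 0.48). Here the LT-HSC WT pair had 47.5 and 50.1, Dnmt3a B 108, the Npm1 pair 346 and 169.9 and the Dnmt3a;Npm1 pair 55.9 and 126. Its MPP3 WT pair had 209 and 376, the Dnmt3a pair 183 and 411, the Npm1 pair 414 and 378 and Dnmt3a;Npm1 B 307. LT-HSC Npm1 A lay inside the MPP3 range, while the LT-HSC WT pair lay at the bottom, a place that the choice on WT favours. By genotype the difference was 1.31 in Dnmt3a, 0.70 in Npm1 and 1.82 in Dnmt3a;Npm1.

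**Figure D2:**
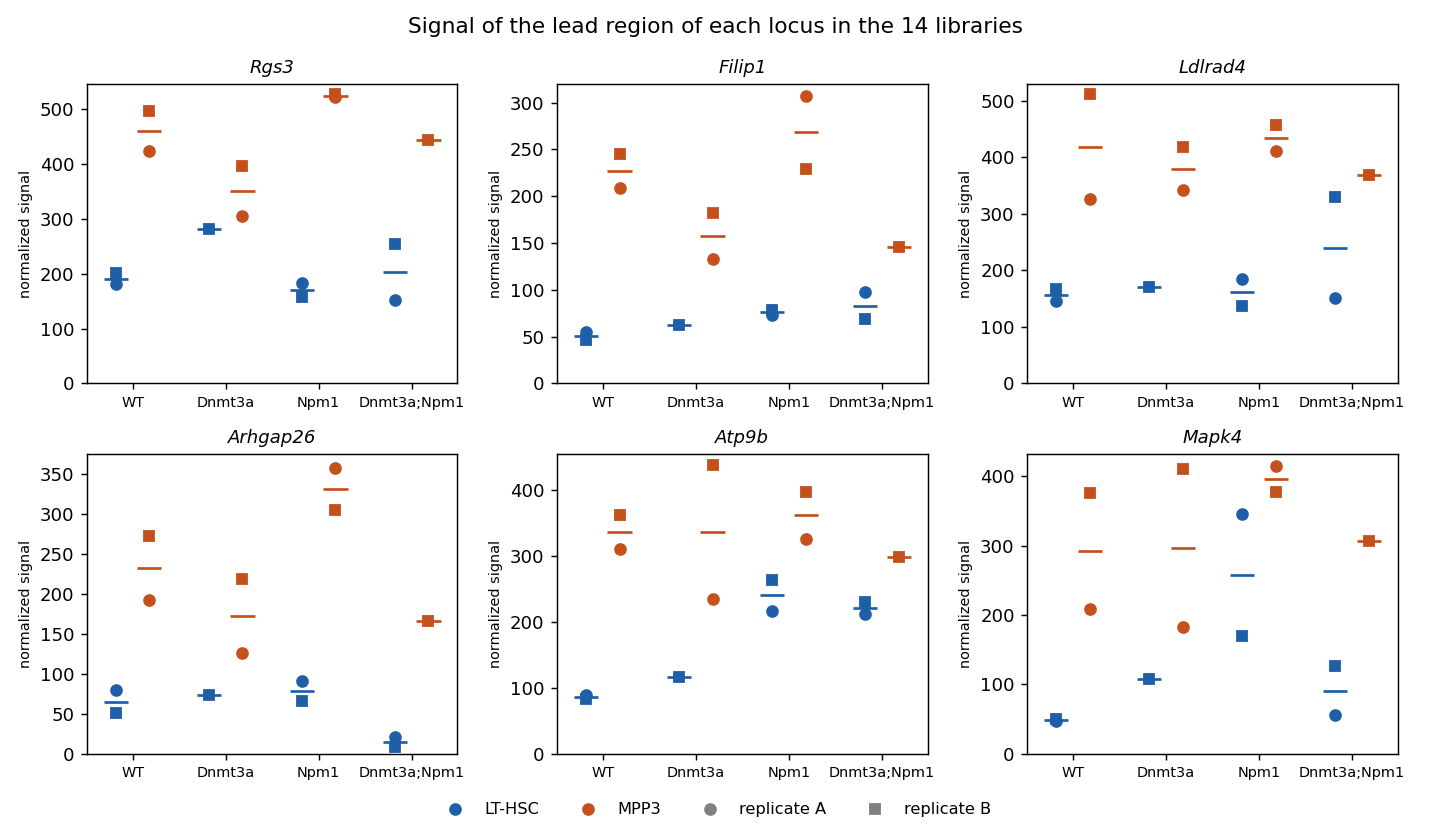
Normalized signal of each lead region (y axis, from 0) by genotype, with a point for each of the 14 libraries coloured by cell type. MPP3 lies above LT-HSC without overlap at Rgs3, Filip1 and Arhgap26. LT-HSC Npm1 lies above LT-HSC WT at Atp9b (217 and 263) and Mapk4 (346 and 169.9), where the choice favours low LT-HSC WT values.

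In the WT libraries that chose Atp9b and Mapk4, no region of any locus passed the threshold, and none of the 59189 tested did either (0%), with 3152 of them and 13 of the 95 at an unadjusted p under 0.05 by limma. The 3 mutant genotypes hold no WT library and so test these 2 loci on libraries that did not choose them. The Atp9b lead differed by 0.81 (SE 0.25) and the Mapk4 lead by 1.28 (SE 0.32), both higher in MPP3. Neither passed after adjustment over all tested regions (adjusted p = 0.378 and 0.303 by limma), with ranges of 0.127 to 0.915 and 0.0927 to 0.886 over the alternative settings. Their unadjusted p-values were 0.00352 and 0.000608. Of the 19 regions of the 2 loci, 0 were called and 4 had an unadjusted p under 0.05. Over all tested regions 0% were called in this comparison, and 5594 had an unadjusted p under 0.05. Direction at both leads held under every alternative run for this comparison, at 0.58 to 0.97 for Atp9b and 1.00 to 1.47 for Mapk4.

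On the log2 scale the lead had the largest difference of its locus over the genotypes, an order that its choice favours. The median log2 difference of the other regions was 0.07 in Rgs3, 0.14 in Filip1, 0.25 in Ldlrad4, 0.31 in Arhgap26, 0.19 in Atp9b and 0.20 in Mapk4. The leads exceeded these medians by 1.01, 1.34, 0.91, 1.75, 0.90 and 1.36 in the same order. Each lead was picked as the top region of its locus and so exceeds the others by choice. The summed signal of the other regions differed by 0.01 in Rgs3, 0.11 in Filip1, 0.34 in Ldlrad4, 0.27 in Arhgap26, 0.18 in Atp9b and 0.25 in Mapk4. In absolute signal the rest of 2 loci gained more than the lead: the library median of the summed other regions was 2967 in LT-HSC and 3827 in MPP3 for Arhgap26, where the lead went from 65.2 to 219, and 1301 and 1731 for Ldlrad4, where it went from 168 to 411. Summed regions under the signal minimum differed by -0.14 in Rgs3 to 0.09 in Arhgap26.

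Most of the other regions were higher in MPP3 in the loci of chromosome 18, and fewer in Rgs3 and Filip1. In Rgs3, on chromosome 4, 13 of 22 were higher in MPP3, and in Filip1, on chromosome 9, 4 of 6. On chromosome 18 the counts were 12 of 13 in Ldlrad4, 26 of 31 in Arhgap26, 4 of 4 in Atp9b and 10 of 13 in Mapk4. Together 69 of the 89 other regions were higher (77.5%, median 0.24), against 52.5% of all tested regions (median 0.03). The background of each chromosome differed in the same way. Outside the 6 loci 66.8% of the 1657 tested regions of chromosome 18 were higher in MPP3 (median 0.16), against 51.4% of 4223 on chromosome 4 (median 0.01) and 45.4% of 3022 on chromosome 9 (median -0.05). Regions over 1 kb from any gene bound, the usual place of the members, were higher at 49.9% of 38021 over the genome and at 57 of 75 among the members.

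**Figure D3:**
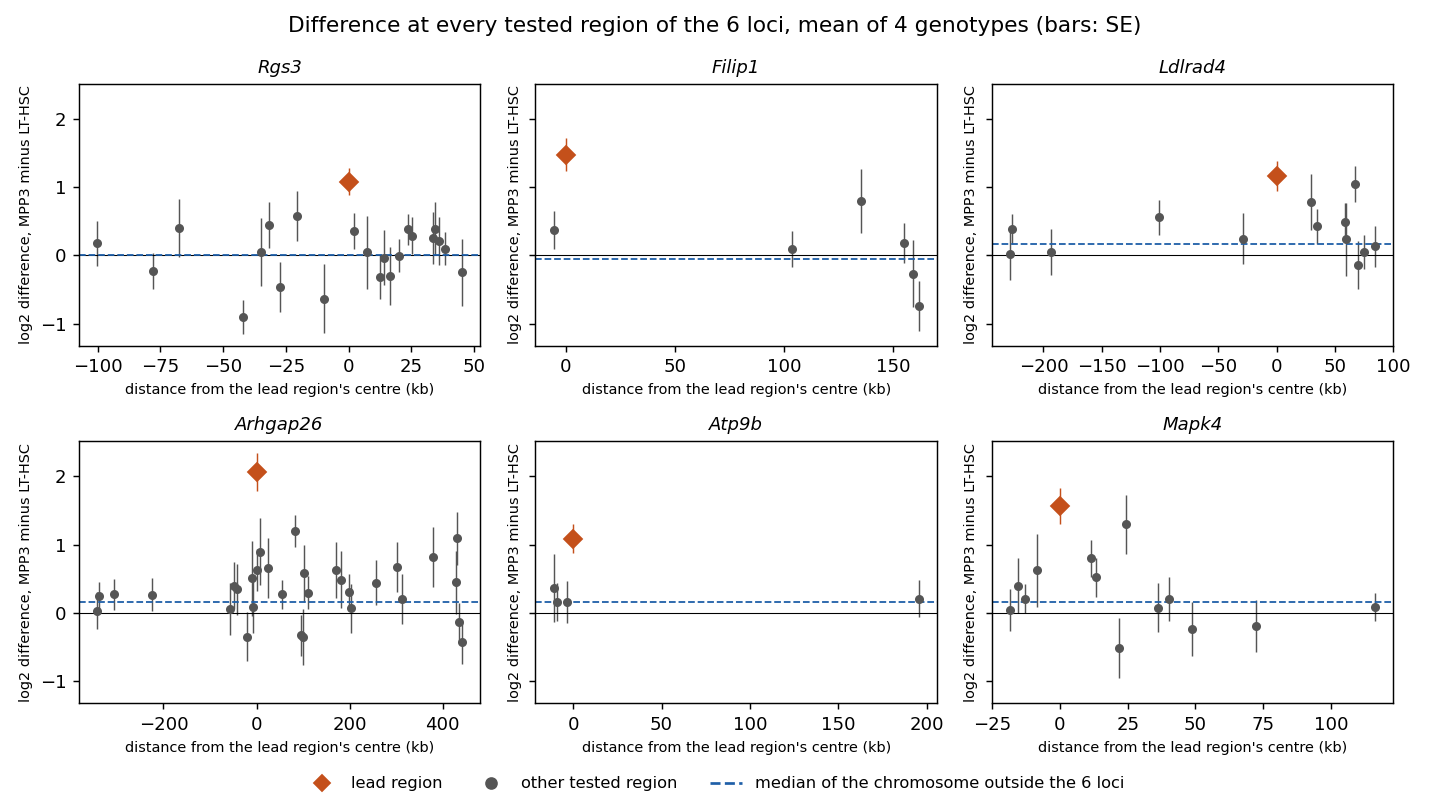
Log2 difference MPP3 minus LT-HSC (mean of 4 genotypes, bars SE) at each tested region against its distance from the centre of the lead region, 1 panel a locus. The leads stand at 1.08 to 2.06, and most other regions lie near 0, with more above than below it in the 4 loci of chromosome 18.

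Centring by chromosome shifts all regions of a locus by the same amount, so the distance from the lead to the rest stays the same by construction. Where each library was centred on the median of its chromosome, the other regions higher in MPP3 numbered 8 of 13 in Ldlrad4, 22 of 31 in Arhgap26, 4 of 4 in Atp9b and 7 of 13 in Mapk4, and their medians were 0.11, 0.17, 0.05 and 0.06. The 4 chromosome 18 leads then differed by 1.02 (SE 0.23), 1.92 (SE 0.26), 0.95 (SE 0.20) and 1.42 (SE 0.26), as descriptions. In Rgs3 and Filip1 centring raised the medians of the other regions to 0.10 and 0.22. Without MPP3 Dnmt3a B the uncentred medians of the other regions were 0.26 in Ldlrad4, 0.29 in Arhgap26, 0.02 in Atp9b and 0.12 in Mapk4, and chromosome 18 as a whole fell to 59.3% higher. Under both changes none of the 4 other Atp9b regions was higher (median -0.05), while 24 of 31 in Arhgap26 were (median 0.22). Over all 6 loci 59 of 89 other regions were higher after centring, with 53.2% for all regions. The centring was added as an alternative after seeing the data.

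**Figure D4:**
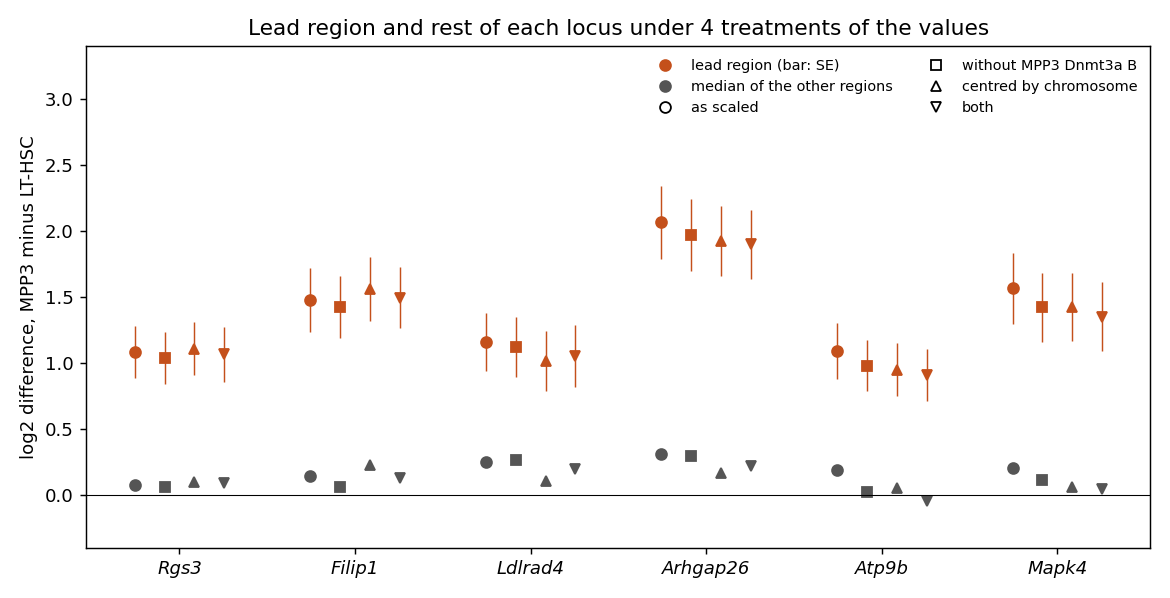
Log2 difference MPP3 minus LT-HSC of the lead region (with SE) and of the median other region in each locus, as scaled, without MPP3 Dnmt3a B, centred by chromosome and with both changes. Leads stay between 0.91 and 2.06, and medians of the rest between -0.05 and 0.31.

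Arhgap26 had the most regions beside its lead that were higher in MPP3. A region at 39020421 to 39021373, inside the gene and the noncoding RNA gene Gm52330, had 199 and 130.4 in the LT-HSC WT pair, 84.5 for Dnmt3a B, 56.3 and 94.8 for Npm1 and 108 and 114 for Dnmt3a;Npm1. The MPP3 WT pair had 212 and 245, Dnmt3a 321 and 190.3, Npm1 241 and 268 and Dnmt3a;Npm1 B 235. LT-HSC WT A alone overlapped MPP3, and the difference was 1.20 (SE 0.23). A second region at 39369131 to 39369956, also inside the noncoding RNA gene Gm15337, had 14.9 to 62.0 in LT-HSC and 63.2 to 163 in MPP3, a difference of 1.09 (SE 0.39) with no overlap. The region 535 bp beyond the lead differed by 0.63 (SE 0.31), and that 7642 bp before it by 0.09 (SE 0.38).

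Ldlrad4 and Mapk4 each held a further region of similar size to the lead difference. In Ldlrad4 the region at 68227193 to 68228294 was at 49.8 to 121 in LT-HSC and 101 to 219 in MPP3, a difference of 1.04 (SE 0.27) with overlap at the edges. In Mapk4 the region at 73972804 to 73973463 was at 13.0 to 63.2 in LT-HSC and 41.3 to 153 in MPP3, a difference of 1.30 (SE 0.43). The Mapk4 region was low, with a mean deposited signal of 57.6, and both ranges overlapped. The Mapk4 region 9948 bp after the lead differed by 0.80 (SE 0.27) and that 6965 bp before it by 0.62 (SE 0.53). In all, 4 of the 89 other regions exceeded a log2 difference of 1 and 0 fell below -1, where 2.21% of all tested regions exceeded 1.

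Filip1, Rgs3 and Atp9b had no such further region. The largest other difference was 0.79 in Filip1, 0.58 in Rgs3 and 0.36 in Atp9b. The neighbour 262 bp beyond the Rgs3 lead differed by 0.36 (SE 0.26) and that 1065 bp before the Atp9b lead by 0.17 (SE 0.31). In WT alone the Rgs3 lead ranked 3 of 23 by size, below regions with differences of 1.68 (SE 0.95) and 1.35 (SE 0.64), and the 4 other Atp9b regions were all lower in MPP3, the lowest at -0.33. Over the members, other regions within 25 kb of a lead had a median of 0.36 (20 of 27 higher), those at 25 to 100 kb 0.21 (23 of 31) and those farther away 0.24 (26 of 31).

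The leads took a larger share of their locus in MPP3. Each lead was picked as higher in MPP3 from these same libraries, so the shares are descriptions that the choice favours, as is any lack of overlap. The Filip1 lead held a mean of 12.3% of the summed tested signal in LT-HSC and 28.1% in MPP3, and the Atp9b lead 23.5% and 35.5%. Rgs3 went from 8.86% to 17.8%, Ldlrad4 from 12.2% to 19.6%, Mapk4 from 9.02% to 18.8% and Arhgap26 from 1.66% to 5.80%. For Rgs3, Filip1 and Arhgap26 the ranges of the libraries did not overlap (6.63% to 12.0% against 14.1% to 21.9%, 8.58% to 17.1% against 20.6% to 42.6%, and 0.323% to 2.55% against 2.86% to 8.08%).

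In the contrast that chose 4 of the genes, 7 of the 95 regions passed an adjusted p of 0.05, the 6 leads and the Arhgap26 region at 39020421, all higher in MPP3. Over all tested regions 0.139% passed, and 0.112% as higher. No overlap between the cell types, with MPP3 higher, was seen at 4 of the 95, the leads of Rgs3, Filip1 and Arhgap26 and the Arhgap26 region at 39369131, and at 0.441% of all tested regions. The choice of genes used these values, so the shares are not comparable.

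Promoter regions inside 2 members, away from their gene bounds, had lower values in MPP3, as descriptions. Windows of Rgs3 and Filip1 were matched in the promoter table, 6 in all, and 1 of each gene lies inside a tested region. They are printed because a tested region with lower signal in MPP3 covers each, in contrast to the leads inside the same genes. Both windows run from 250 bases before to 50 after an annotated start in RefSeq, build GRCm38.p6, 5′ to 3′ on the strand of the gene. Capitals mark, in the Rgs3 window, a match to the GATA motif AGATAA (as its reverse complement) and to the GC box GGGCGG, and in the Filip1 window matches to the E-box CAGCTG.
Rgs3 promoter, chr4:62619422-62619721, plus strand: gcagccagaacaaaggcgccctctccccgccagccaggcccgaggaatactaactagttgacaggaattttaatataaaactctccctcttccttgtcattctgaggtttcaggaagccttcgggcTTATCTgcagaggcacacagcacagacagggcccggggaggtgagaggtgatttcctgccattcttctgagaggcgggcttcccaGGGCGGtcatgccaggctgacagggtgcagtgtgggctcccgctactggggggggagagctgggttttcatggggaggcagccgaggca
Filip1 promoter, chr9:79977833-79978132, minus strand: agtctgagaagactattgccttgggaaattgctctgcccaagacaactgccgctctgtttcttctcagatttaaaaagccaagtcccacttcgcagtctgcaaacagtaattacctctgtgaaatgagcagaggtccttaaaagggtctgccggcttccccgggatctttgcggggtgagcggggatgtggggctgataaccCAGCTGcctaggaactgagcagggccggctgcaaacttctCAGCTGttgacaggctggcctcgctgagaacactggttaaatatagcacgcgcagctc

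The Rgs3 region over this promoter, at 62618585 to 62620389, had 167 and 377 in the LT-HSC WT pair, 238 for Dnmt3a B, 220.1 and 202 for Npm1 and 238 and 171 for Dnmt3a;Npm1. The MPP3 WT pair had 138 and 101, Dnmt3a 190.2 and 131, Npm1 129.7 and 84.7 and Dnmt3a;Npm1 B 100. MPP3 was lower, with overlap only at MPP3 Dnmt3a A, and the difference was -0.90 (SE 0.24). This was the lowest of the 23 Rgs3 regions, while the lead had the highest difference. Filip1 showed the same order at 79977494 to 79978165, with 71.3 and 100.3 in the LT-HSC WT pair, 63.4 for Dnmt3a B, 72.8 and 94.8 for Npm1 and 46.7 and 42.8 for Dnmt3a;Npm1. Its MPP3 WT pair had 26.5 and 34.5, Dnmt3a 44.0 and 28.2, Npm1 48.0 and 36.3 and Dnmt3a;Npm1 B 49.1. The libraries overlapped through the low LT-HSC Dnmt3a;Npm1 pair, and the difference was -0.74 (SE 0.37) over the genotypes and -1.37 in WT. Neither region was called over the genotypes (adjusted p = 0.128 for Rgs3 and 0.411 for Filip1 by limma). Both regions lie at inner starts, 58750 bp (Rgs3) and 34686 bp (Filip1) from the nearer gene bound. The promoter windows at the gene bounds of these 2 genes had no tested region. In the other 4 loci the regions at or within 1 kb of either gene bound had differences of -0.14 (SE 0.29) in Arhgap26 to 0.38 (SE 0.22) in Ldlrad4. Those lie at gene starts or gene ends, so they are no like comparison for the inner starts.

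The Rgs3 window was 58.7% G and C with 9 CpG, and the Filip1 window 53.0% with 10 CpG, beside medians of 52.7% and 7 CpG over 32851 promoters. Both strands were searched for AGATAA (for GATA factors, in 11.2% of all promoters), TGTGGT (RUNX, 16.8%), CAGCTG (E-box, 16.3%), AGGAAGT (ETS, 9.35%), TGANTCA (AP-1, 7.81%), CCAAT (37.4%) and GGGCGG (GC box, 35.7%). Rgs3 had 1 AGATAA and 1 GGGCGG match and Filip1 2 CAGCTG matches, with no match to the other motifs in either window. The matches describe the letters only.

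Genotype differences were then compared within each cell type. For Rgs3, Filip1, Ldlrad4 and Arhgap26 the comparisons with WT are not the contrast that chose them and were tested over 76 regions. The same libraries entered that contrast with equal weights, so such a test is independent of the choice only if their spread is equal. For the 19 regions of Atp9b and Mapk4, chosen on WT libraries, the comparisons with WT are descriptions. Comparisons against one WT pair share that pair, and each is given by its own values.

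In LT-HSC, Npm1 against WT called 0 of the 76 regions by limma, with 11 at an unadjusted p under 0.05 and a smallest adjusted p of 0.107. Over all tested regions 5.91% were called and 1.40% as higher. Lead differences were -0.16 (SE 0.35) in Rgs3, 0.55 (SE 0.44) in Filip1, 0.02 (SE 0.39) in Ldlrad4 and 0.27 (SE 0.50) in Arhgap26. None of these 4 was called. At Filip1 both Npm1 libraries lay above both WT libraries, and the pairs overlapped at Rgs3, Ldlrad4 and Arhgap26. How often such pairs separate over all tested regions was not counted. As a description, the Atp9b lead was higher in Npm1 by 1.43 (SE 0.37) and the Mapk4 lead by 2.22 (SE 0.48), and all 14 Mapk4 regions were higher (median 0.76). Both LT-HSC Npm1 libraries were also those with the least signal inside tested regions (29.4% and 25.5%). In the same comparison granulocyte and monocyte regions were higher in Npm1 at 37 of 59 (median 0.64, 2 called higher and 1 lower), macrophage and dendritic regions at 8 of 10 (median 0.52) and B and T cell regions at 20 of 30 (median 0.30), the last 2 lists with 0 called. Stem cell regions were higher at 34 of 97 (median -0.18, 4 called lower), and erythroid and megakaryocyte regions at 20 of 51 (median -0.31, 3 called lower). Both counts lie near the share called lower over all tested regions, 4.52%. The part of library enrichment and of these lists in the lead values was not tested.

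LT-HSC Dnmt3a;Npm1 against Npm1 uses no WT library and was a test at all 6 loci. At the loci chosen over the genotypes, whose choice used these libraries, this comparison is independent of the choice only under equal spread. It called 2 of the 95 regions, both lower in Dnmt3a;Npm1 and both in Arhgap26, where 1.70% of all tested regions were called and 0.204% as lower. The lead, with 91.0 and 65.2 in Npm1 and 20.3 and 8.73 in Dnmt3a;Npm1, fell by 2.20 (SE 0.50, adjusted p = 0.0362 by limma). The low Dnmt3a;Npm1 pair also widened the difference between cell types on which this lead was chosen. The second region, at 38897270 to 38898301 inside Gm5820 and the growth factor gene Fgf1 as well, had 152 and 148 in Npm1 and 22.3 and 16.6 in Dnmt3a;Npm1. It fell by 2.73 (SE 0.67, adjusted p = 0.0448). In that second region WT had 74.2 and 31.1 and Dnmt3a 26.2, so Npm1 was the high group there, whereas at the lead Dnmt3a;Npm1 was the low group.

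Other Arhgap26 regions did not pass the test. Of all 32, 23 were lower in Dnmt3a;Npm1 than in Npm1 (median -0.44), and 22 after centring by chromosome (median -0.27). Against LT-HSC WT, 26 were lower (median -0.39), and the lead differed by -1.94 (SE 0.50, unadjusted p = 0.000782, adjusted p = 0.469). That comparison called 0 of the 76 regions by limma, with 6 at an unadjusted p under 0.05, and 0.00338% of all tested regions. At 5 Arhgap26 regions both LT-HSC Dnmt3a;Npm1 libraries lay below the other 5 LT-HSC libraries, as at 2 of 7 in Filip1, at 0 in the other 4 loci and at 3.68% of all tested regions. In MPP3 the single Dnmt3a;Npm1 library differed from WT at the Arhgap26 lead by -0.46 (SE 0.61).

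The Arhgap26 call depended on which libraries and settings entered. It held in 15 of 26 alternatives and was lost in 11, with the difference at -2.67 to -1.64 and adjusted p at 0.0142 to 0.331. Without LT-HSC Dnmt3a;Npm1 B the lead differed by -1.74 (adjusted p = 0.300), without Npm1 A by -1.99 (0.108), without Npm1 B by -2.45 (0.116) and without LT-HSC WT A by -2.25 (0.0643). Leaving out MPP3 Npm1 A or B, which enter only through the shared spread and the library scaling, gave adjusted p of 0.0616 and 0.067 by limma. After centring by chromosome it was -2.04 (SE 0.47, adjusted p = 0.0409). The second region kept its call in 9 of 25 alternatives, with adjusted p at 0.0355 to 0.392. In the same comparison granulocyte and monocyte regions were higher in Dnmt3a;Npm1 at 19 of 59 (median -0.52), B and T cell regions at 7 of 30 (median -0.72) and macrophage and dendritic regions at 3 of 10 (median -0.41). Stem cell regions went the other way, at 56 of 97 (median 0.20, 2 called higher), as did erythroid and megakaryocyte regions, at 32 of 51 (median 0.25). Over all tested regions 50.4% were higher and 1.50% were called as higher. The part of these lists in the Arhgap26 values was not tested.

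At the other leads this comparison gave no call. Mapk4 had 13 of 14 regions lower (median -0.85) and its lead differed by -1.49 (SE 0.48, adjusted p = 0.0966), which passed only with a signal minimum of 100 (adjusted p = 0.0382). The Atp9b lead differed by -0.11 (SE 0.37), with 217 and 263 in Npm1 against 212 and 231. Rgs3 differed by 0.21 (SE 0.35), Filip1 by 0.11 (SE 0.44) and Ldlrad4 by 0.48 (SE 0.39).

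**Figure D5:**
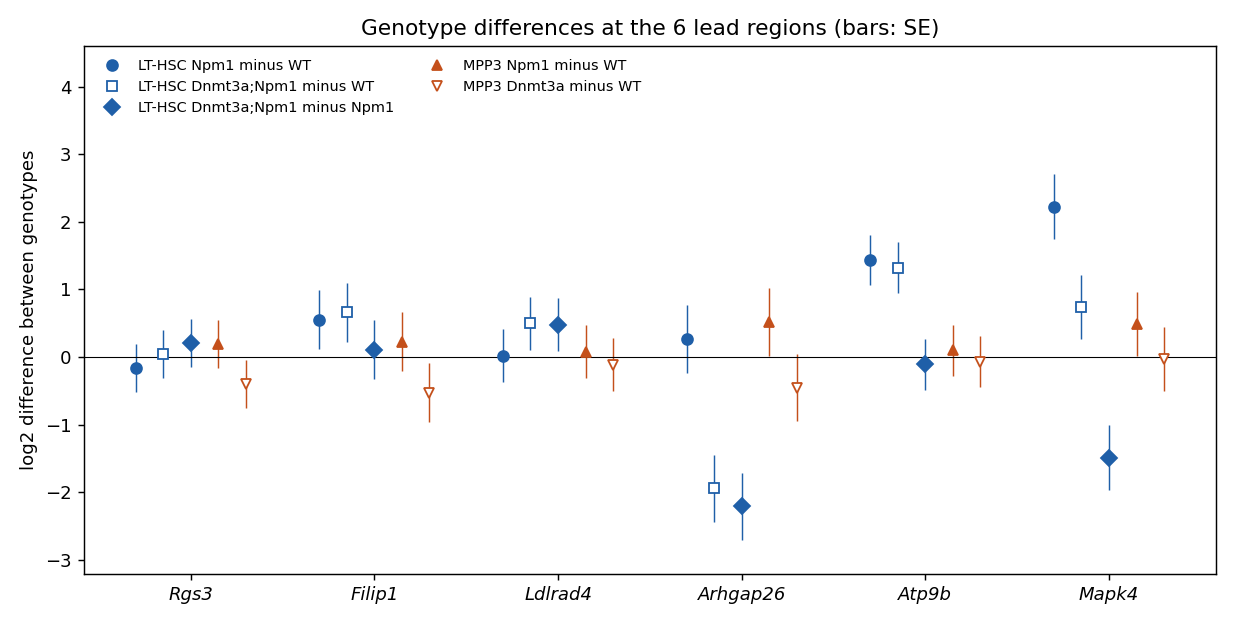
Log2 differences between genotypes at the 6 lead regions, with limma's SE as bars. The Arhgap26 lead is lowest in LT-HSC Dnmt3a;Npm1 (-2.20 against Npm1, -1.94 against WT), and the Mapk4 and Atp9b leads are highest in LT-HSC Npm1 against WT (2.22 and 1.43).

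No lead passed the test between genotypes within MPP3. Npm1 against WT called 0 of the 76 regions and 0% of all tested (limma), with 0 and 68 at an unadjusted p under 0.05. Lead differences ran from 0.08 (SE 0.39) in Ldlrad4 to 0.52 (SE 0.50) in Arhgap26. Dnmt3a against WT called 0 of 76 and 0% of all, with 9 and 5989 at an unadjusted p under 0.05 by limma, and its 4 leads ran from -0.52 (Filip1) to -0.11 (Ldlrad4). Arhgap26 had 27 of 32 regions higher in MPP3 Dnmt3a than in WT (median 0.44). After centring by chromosome 15 of the 32 were lower (median 0.03), and without MPP3 Dnmt3a B 8 were lower (median 0.50). Npm1 against Dnmt3a, a test at all loci, called 0 of 95 with 8 at an unadjusted p under 0.05, and 0.00845% of all tested regions. All 6 leads were higher in Npm1 there, from 0.17 (SE 0.37) in Atp9b to 0.97 (SE 0.50, adjusted p = 0.478 by limma) in Arhgap26, with none called. Both Npm1 libraries lay above both Dnmt3a libraries at the Rgs3, Filip1 and Arhgap26 leads, and the pairs overlapped at Ldlrad4, Atp9b and Mapk4. How often such pairs separate over all tested regions was not counted, so this is a description.

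The effect of Npm1 in MPP3 minus that in LT-HSC was tested as an interaction. It called 0 of the 76 regions by limma (2 at an unadjusted p under 0.05) and 0% of all tested (6557 at an unadjusted p under 0.05). Lead values were 0.35 (SE 0.50) in Rgs3, -0.33 (SE 0.62) in Filip1, 0.06 (SE 0.56) in Ldlrad4 and 0.25 (SE 0.70) in Arhgap26. As descriptions, it was -1.33 (SE 0.53) in Atp9b and -1.73 (SE 0.68) in Mapk4, where Npm1 minus WT was 0.10 and 0.49 in MPP3. Groups with a single library are described only. LT-HSC Dnmt3a B against WT was higher at 65 of 95 regions, and at 51.9% of all tested regions. MPP3 Dnmt3a;Npm1 B against WT was higher at 60 of 95, and at 51.6% of all. In tested regions the chromosome 18 share was 1.03 and 0.90 times the median library in the LT-HSC WT pair. In the MPP3 WT pair it was 0.92 and 1.01 times. The part of these shares in the counts was not tested.

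Families and partners of the members were compared between the cell types. Over all tested regions 52.5% were higher in MPP3, and 0.139% were called, 0.112% as higher. Of 103 regions of RGS proteins and their G protein subunits, 61 were higher in MPP3 (median 0.07), 0 passed as higher and 1 as lower, in Rgs6 (-1.78, SE 0.33, adjusted p = 0.0304). Filamin genes were higher at 21 of 30 (median 0.24) with 0 called, and TGF-beta and SMAD genes at 49 of 113 (median -0.09) with 0 called. P4-ATPases and their partners were higher at 48 of 72 (median 0.20) with 0 called, led by Atp8b4 at 1.21 (adjusted p = 0.0545). Atypical MAP kinase genes were higher at 10 of 17 (median 0.04) with 0 called.

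In LT-HSC, Npm1 against WT, the TGF-beta and SMAD list had 9 regions called as lower and 0 as higher of 113 (median -0.15), where 4.52% of all tested regions were called as lower and 1.40% as higher. Examples were the inhibitor Smad7 (-1.68, SE 0.33, adjusted p = 0.0129), the SMAD corepressor Ski (-1.79, SE 0.38) and the ligand Tgfb1 (-1.72, SE 0.36). Other lists had 4 lower in RGS, 2 lower in atypical MAP kinases, 1 higher in filamin (Filip1l at 1.05, SE 0.28), and 1 higher and 1 lower in P4-ATPases, the former Atp9a (3.39, SE 0.77), the closest relative of Atp9b. In Dnmt3a;Npm1 against Npm1, regions of Smad7 (1.46, SE 0.33) and Zfyve9 (2.13, SE 0.40) passed as higher, 2 of 113 in that list, where 1.50% of all tested regions did. Counts of called regions in the related lists moved by over 1.5 times in both directions under the alternatives. They fell to 0 with library enrichment as a covariate in both the cell type comparison and Npm1 against WT, and rose in both when scaled to the library total.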

How the data were processed

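ATAC-seq signal was deposited by the authors as whole numbers per library over 705361 shared regions of build mm10. The signal values are not raw counts: low values lay on a library-specific step in 8 libraries, which put 7320178 to 18260263 reads in their regions, and the depth of the other 6 is unknown. Per the submitters' processing notes, R 3.6.0, DiffBind 2.12.0, edgeR 3.26.4 and HOMER 4.10 took part, in roles the notes leave out. Aligner, peak calling and any shift for the transposase are not given in the sources used here.

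Groups came from the labels. Regions with a mean signal of at least 50 were kept (59189, 8.39%). Libraries were scaled by trimmed-mean-of-M-values factors computed in R 4.3.3. The model of limma 3.58.1, on log2 of the scaled value plus 4, had 1 term for each of the 8 groups and a prior variance that was trended and robust. A group of 1 library takes its spread from the rest. Calls are two-sided, at a Benjamini-Hochberg adjusted p under 0.05 over all tested regions. This test stands in for the count test planned at first, which needs raw counts. The fit was tested on simulated data.

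The named genes are the 6 members, their overlapping neighbours and the regions above; for each lead region the 3 most similar regions elsewhere were taken, and for lists the called or top regions. Members and lists were chosen with earlier results of these data known, and 1 list of related genes is not reported here. Alternatives covered the signal minimum, scaling, pseudocount, prior, pairing, library enrichment and each left-out library. Genes and promoters came from RefSeq; a region's gene is a position only. No problem-region list was applied.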

Additional observations from a re-analysis of the deposited data

How the results depend on the processing

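Every lead kept its direction between cell types in all alternatives run, with differences of 0.90 to 1.34 in Rgs3, 1.33 to 1.70 in Filip1, 1.02 to 1.30 in Ldlrad4, 1.66 to 2.37 in Arhgap26, 0.91 to 1.31 in Atp9b and 1.35 to 1.85 in Mapk4. The adjusted p by limma at these leads ran up to 0.208, as a description, since the choice used this contrast or its WT part. Of 483 repeats of the main counts and locus medians, 433 stayed within 1.5 times (counts) or within the library spread (medians). This total includes comparisons with 0 calls in every run, and medians judged against a spread as wide as 0.66 (Atp9b). Where the main count was above 0, it stayed less often. Between the cell types over the genotypes it stayed in 14 of 27 repeats. The count stayed in 17 of 26 for LT-HSC Npm1 against WT and 9 of 26 for LT-HSC Dnmt3a;Npm1 against Npm1. The median of the other regions ran from 0.01 to 0.22 in Rgs3, 0.06 to 0.31 in Filip1, 0.11 to 0.44 in Ldlrad4, 0.17 to 0.42 in Arhgap26, -0.05 to 0.42 in Atp9b and 0.04 to 0.37 in Mapk4. It changed sign in Atp9b alone, to -0.05 with centring by chromosome and without MPP3 Dnmt3a B.

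Counts of member regions called did move, and the cause was not tested. Between the cell types over the genotypes 7 became 4 with a signal minimum of 20, 1 with library enrichment as a covariate, 0 with an untrended, non-robust prior, 2 without the Npm1 genotype, 4 without the Dnmt3a genotype and 4 without Dnmt3a;Npm1, and 0 to 8 when a library was left out (0 without MPP3 WT B). Calls over all tested regions went from 82 to 4 with the covariate, 0 with the untrended prior and 0 without MPP3 WT B. They were 145 of 273496 with a minimum of 20, and 10, 35 and 33 without those genotypes in the same order. Over the mutant genotypes the member count of 0 became 1 with a pseudocount of 16 and 1 when scaled to the library total, and 0 to 1 with a library left out. In LT-HSC, Npm1 against WT, 2 became 0 with a minimum of 20, 5 by library total, 0 with the covariate, 0 with the untrended prior, and 0 to 3 with a library left out. For LT-HSC Dnmt3a;Npm1 against Npm1, 2 became 0 with a minimum of 20, by library total, with cyclic loess, with the covariate and with the untrended prior, 1 after centring by chromosome, and 0 to 5 with a library left out (5 without Dnmt3a;Npm1 A). Centred and without MPP3 Dnmt3a B, the counts were 1 over the mutant genotypes, 2 for MPP3 Dnmt3a against WT, 1 for LT-HSC Dnmt3a;Npm1 against Npm1 and 2 for MPP3 Npm1 against Dnmt3a. LT-HSC Dnmt3a;Npm1 against WT gave 0 to 1 and MPP3 Dnmt3a against WT 0 to 2 with a library left out, and MPP3 Npm1 against Dnmt3a 1 by library total and 0 to 2 with a library left out. Leaving out LT-HSC Dnmt3a B or MPP3 Dnmt3a;Npm1 B empties its group, so the mean over genotypes could not be given.

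With the letters as a replicate block, the count for LT-HSC Dnmt3a;Npm1 against Npm1 was 1, and no other such count moved by over 1.5 times. The letters do not pair the libraries: deviations correlated at -0.30 to 0.43 over 15 pairs of groups, with 1 over 0.1. LT-HSC WT and MPP3 WT correlated at -0.30, and with crossed letters the count was 1.

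Scaling to the library total moved the median of all regions from 0.03 to 0.13. Depth is unknown for 6 libraries, and 836 low regions of the loci were not tested singly.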

Other observations

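Some regions elsewhere in the genome followed the leads closely over the 14 libraries. By Pearson correlation of log2 signal, the Rgs3 lead was most like a region in Elovl6 (r = 0.938) and then in Phactr2 (0.938), and the Filip1 lead like a region in Ank2 (0.955). The Ldlrad4 lead was most like a region near Gm16894 (0.968) and then in Emb (0.928), and the Arhgap26 lead like regions in Smyd3 (0.965) and Dhx29 (0.948). For Atp9b it was a region near Gm18136 (0.938), and for Mapk4 a region in Gfi1b (0.955), which encodes a repressor of transcription in blood cells. These were the highest of all tested regions over 1000000 bp away or on other chromosomes, so high values follow from the search, and the points share libraries and cell type. Among the 6 leads themselves the correlations ran from 0.516 to 0.919, with a median of 0.764 over 15 pairs.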
